A study of Mus musculus with 8 samples.

Results

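The members are 9 liver genes of insulin signalling and glucose output, taken by gene symbol from the array's platform annotation: the insulin receptor gene Insr, the receptor substrate genes Irs1 and Irs2, the transcription regulators Foxo1 and Ppargc1a, the gluconeogenic enzyme genes G6pc, Pck1 and Fbp1, and the glucose transporter gene Slc2a2. They are 9 of the 16593 named genes on the array and were read by 11 of its 25697 probes, 3 of them for Slc2a2 and 1 for every other gene. Of these 11 probes, 10 probes for 8 genes entered the test, which used 11412 probes in all. The liver samples came from 4 wild-type and 4 heterozygous male mice of strain C3HeB/FeJ, all 21 weeks old, each on its own Illumina bead array. The heterozygous mice carry the allele Jag1K295*/+, a stop codon in the gene of a Notch ligand, and the series offers them as a model of Alagille syndrome, a disorder with too few bile ducts. The labels name no Cre driver or transgene in either group, and the samples are whole liver rather than sorted cells. The labels state neither feeding nor time of day at dissection. In whole tissue, fewer cells of a type and less RNA per cell cannot be told apart.

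Insulin binds its receptor on the hepatocyte, the receptor phosphorylates the IRS proteins, and the signal passes through PI3 kinase to AKT. AKT keeps FOXO1 out of the nucleus, and this lowers transcription of Irs2, G6pc and Pck1, which FOXO1 and its coactivator PGC-1alpha otherwise raise during fasting. Pck1 and Fbp1 act along the path from oxaloacetate to glucose 6-phosphate, G6pc encodes the catalytic subunit that frees glucose in the last step, and Slc2a2 encodes GLUT2, the carrier that lets glucose cross the hepatocyte membrane in either direction.

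The 250 bases before the annotated start are shown for the 4 genes with any probe at an unadjusted limma p under 0.05. None of them passed after adjustment. Irs2, G6pc and Pck1 are textbook targets of FOXO1 or cyclic AMP. Slc2a2 is included for 2 probes that lay lower, while its brightest probe was at -0.09. The windows are RefSeq sequence of build GRCm38.p6, which is strain C57BL/6J and not the strain of these mice. Promoters were matched for 8 of the 9 members. Capitals mark the letters of a searched motif, read on both strands: TGTTTAC, the FOXO consensus; TGTTTTG, the insulin response element as found in gluconeogenic genes; and TGACG, the core of a cyclic AMP response element. The first 2 motifs share their opening letters, and no matches overlapped in the member windows.
G6pc, chr11:101367466-101367715, plus strand: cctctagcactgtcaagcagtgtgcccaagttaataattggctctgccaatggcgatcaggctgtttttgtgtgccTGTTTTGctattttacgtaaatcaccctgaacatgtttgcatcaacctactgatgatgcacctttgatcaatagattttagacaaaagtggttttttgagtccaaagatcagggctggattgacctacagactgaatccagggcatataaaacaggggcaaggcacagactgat
Irs2, chr8:11008930-11009179, minus strand: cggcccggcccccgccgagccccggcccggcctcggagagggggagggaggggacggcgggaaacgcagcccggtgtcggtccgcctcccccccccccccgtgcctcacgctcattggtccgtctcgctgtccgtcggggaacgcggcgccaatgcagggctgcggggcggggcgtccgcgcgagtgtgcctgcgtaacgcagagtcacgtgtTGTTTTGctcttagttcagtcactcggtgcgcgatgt
Pck1, chr2:173152823-173153072, plus strand: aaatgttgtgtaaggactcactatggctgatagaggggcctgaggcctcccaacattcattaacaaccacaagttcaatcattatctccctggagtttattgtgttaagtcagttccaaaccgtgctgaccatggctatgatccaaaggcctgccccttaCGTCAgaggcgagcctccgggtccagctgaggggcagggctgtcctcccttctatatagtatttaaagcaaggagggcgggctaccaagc
Slc2a2, chr3:28697653-28697902, plus strand: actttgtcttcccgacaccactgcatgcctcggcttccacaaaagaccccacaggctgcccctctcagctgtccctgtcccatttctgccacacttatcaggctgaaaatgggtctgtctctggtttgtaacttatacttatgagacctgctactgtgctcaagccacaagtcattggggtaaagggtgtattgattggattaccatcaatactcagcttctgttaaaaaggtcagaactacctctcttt

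TGTTTTG began 174 bases before the start of G6pc and 37 bases before that of Irs2. Irs1 held it at 2 places, 111 and 32 bases before its start. It was present in 5.56% of 32851 promoter windows of this length. TGACG stood on the opposite strand 90 bases before the Pck1 start, and windows of Irs1 and Ppargc1a also held it, against 17.8% of all windows. TGTTTAC was in none of the 8 member windows and in 3.17% of all. Those of Slc2a2, Foxo1 and Fbp1 held 0 of the 3 motifs. These are matches of letters and say nothing of binding.

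None of the 10 tested member probes passed the threshold, a limma p adjusted over all tested probes of 0.05 or less. Their adjusted p-values ran from 0.204 to 0.916, and 1 of the 11412 probes passed, 0.00876% of those tested, which belonged to no member. At an unadjusted p under 0.05, 3 of the 10 lay higher in heterozygous liver (Irs2, G6pc and Pck1), where 5.26% of all probes did, and 2 lay lower (both Slc2a2), where 5.95% did. These 2 probes read the same gene and moved together over the 8 arrays (Pearson r = 0.96), so they are not separate members. The groups did not overlap for 1 higher probe, Irs2, and for the same 2 lower probes, against 3.15% and 3.10% of all probes. Irs2 was detected on 2 of 4 wild-type and 4 of 4 heterozygous arrays, and with the wild-type detections alone it would not have been tested. Its place in these counts is therefore no support for a difference. The members were picked with earlier results of these data known, so these shares are descriptive.

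**Figure D1:**
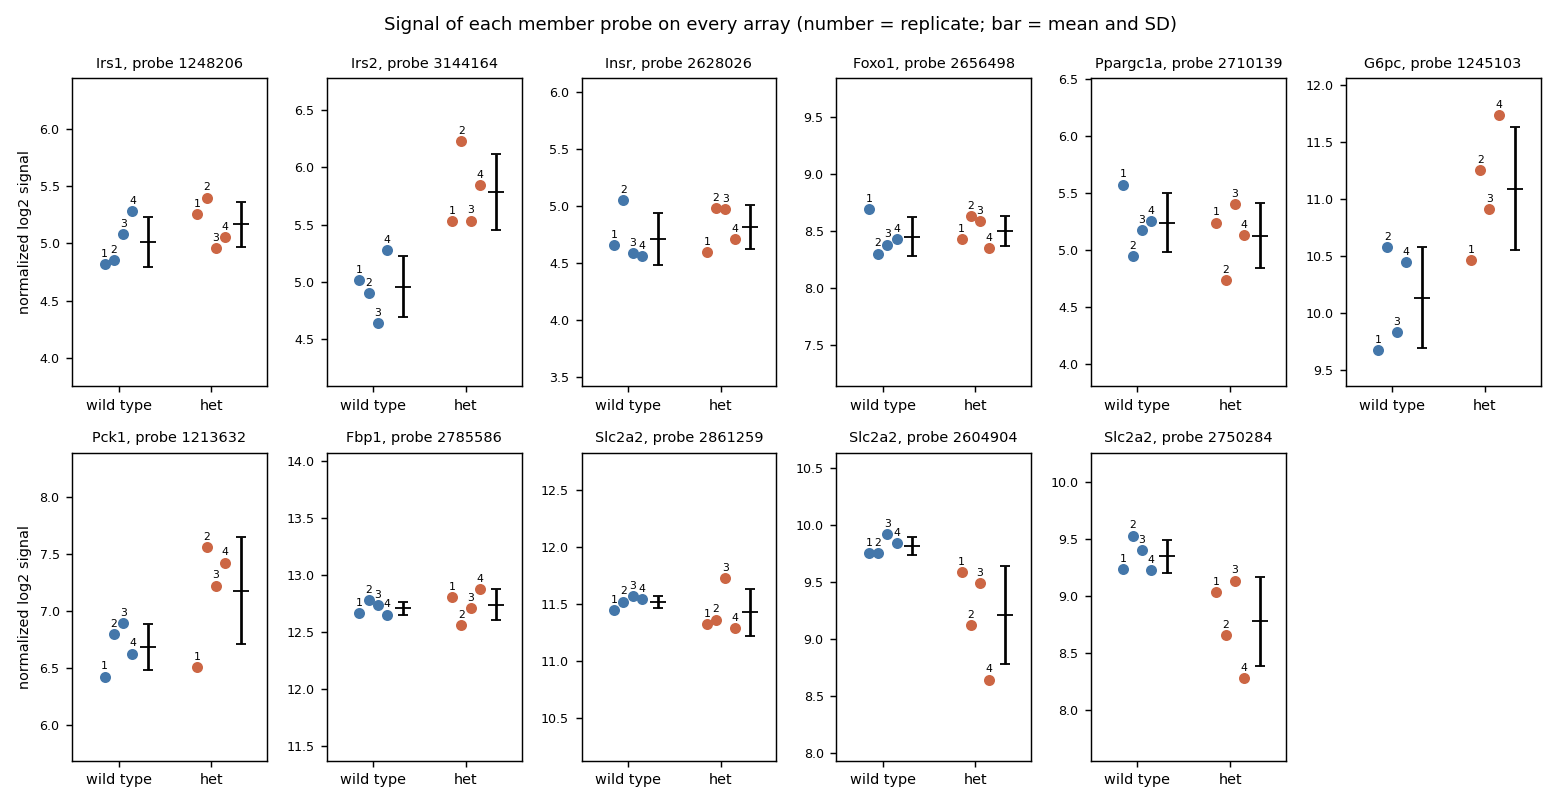
Normalized log2 signal of the 11 member probes on each of the 8 arrays, wild type in blue and heterozygous in orange, numbered by replicate, with the group mean and SD as a bar. Each panel spans the same number of log2 units. Irs2 and 2 Slc2a2 probes show separate groups, G6pc and Pck1 overlap through heterozygous replicate 1, and the other probes overlap.

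G6pc, which sits at the exit of glucose from the hepatocyte, had the largest log2 fold change among the tested members in the main fit. Irs2 was larger without heterozygous replicate 4, without wild-type replicate 1 and with array weights. The normalized log2 signals of G6pc on the wild-type arrays were 9.68, 10.58, 9.83 and 10.45, and those on the heterozygous arrays 10.46, 11.25, 10.91 and 11.73. Heterozygous replicate 4 was the highest of the 8 arrays, and 3 of the 4 heterozygous arrays lay above every wild-type array, while heterozygous replicate 1 lay among them. The means were 10.13 ± 0.45 and 11.09 ± 0.54 (SD, n = 4 each), a 1.94-fold difference. limma gave a log2 fold change of 0.96 ± 0.27 (SE; 95% interval 0.35 to 1.56; adjusted p = 0.309). Before normalization the signals ran from 863 to 1695 in wild type and from 1374 to 3452 in heterozygous mice. The first principal component of all tested probes held 30.3% of their variance. It separated the groups, at -12.3 to -4.12 in wild type and -0.42 to 24.3 in heterozygous liver. From high to low, heterozygous replicates 4, 2, 3 and 1 took the same order on it as for G6pc. The part of this component in the members' values was not tested. Heterozygous replicate 4 stood apart on it, at 24.3 where the other 7 arrays lay between -12.3 and 6.90. Without it the log2 fold change of G6pc was 0.74 (adjusted p = 0.485) and that of Irs2 0.81, and with array weights they were 0.84 and 0.87. Without wild-type replicate 1 they were 0.80 and 0.86.

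Pck1, encoding the enzyme that turns oxaloacetate into phosphoenolpyruvate, also had heterozygous replicate 1 lowest of its group. Wild-type log2 signals were 6.43, 6.80, 6.89 and 6.63, and heterozygous ones 6.51, 7.56, 7.22 and 7.43. Again 3 heterozygous arrays lay above all wild-type arrays and heterozygous replicate 1 lay among them. The log2 fold change was 0.49 ± 0.20 (SE; 95% interval 0.04 to 0.95; limma adjusted p = 0.423), or 1.41-fold. The probe was detected on 8 of 8 arrays but dim, with signals of 182 to 271. Without background correction its log2 fold change was 0.28.

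Fbp1 encodes fructose-1,6-bisphosphatase, the middle of these 3 enzymes along the path. It was level: 12.66, 12.78, 12.73 and 12.65 in wild type against 12.81, 12.56, 12.71 and 12.88 in heterozygous liver. The log2 fold change was 0.03 ± 0.09 (SE; 95% interval -0.16 to 0.23; limma adjusted p = 0.916), and with median scaling it turned to -0.051. That interval leaves out a difference of the size seen for G6pc.

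Slc2a2, the only member with more than 1 probe, lay below 0 on all 3, by unlike amounts. Its probe ILMN_2604904 gave wild-type log2 signals of 9.75, 9.76, 9.92 and 9.84 against 9.59, 9.12, 9.49 and 8.64 in the heterozygous group. Every heterozygous array lay below every wild-type array. The means were 9.82 ± 0.08 and 9.21 ± 0.43 (SD, n = 4 each), 1.52-fold lower in heterozygous mice, with a log2 fold change of -0.61 ± 0.18 (SE; 95% interval -1.0 to -0.21; limma adjusted p = 0.309).

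Probe ILMN_2750284 also separated the groups, with 9.24, 9.53, 9.41 and 9.23 against 9.04, 8.66, 9.14 and 8.28. Its log2 fold change was -0.57 ± 0.17 (SE; 95% interval -0.95 to -0.19; limma adjusted p = 0.309). On both probes heterozygous replicate 4 was lowest and heterozygous replicate 2 next, the arrays that were also highest for G6pc. Without heterozygous replicate 4 their log2 fold changes were -0.42 and -0.41 (adjusted p = 0.401 and 0.480).

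The third Slc2a2 probe, ILMN_2861259, had the brightest signals, 2779 to 3479 in wild type and 2479 to 3462 in heterozygous mice. In log2 units the wild-type arrays read 11.45, 11.52, 11.57 and 11.55, and the heterozygous arrays 11.33, 11.36, 11.73 and 11.29. Here 3 heterozygous arrays lay below all wild-type arrays and heterozygous replicate 3 lay above them all. The log2 fold change was -0.09 ± 0.10 (SE; 95% interval -0.32 to 0.14; limma adjusted p = 0.765), and it was -0.20 without heterozygous replicate 3, -0.06 without heterozygous replicate 1 and -0.05 without heterozygous replicate 4. When the 3 probes were averaged, the gene's log2 fold change was -0.42 (adjusted p = 0.406).

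All 3 probes carry the same transcript accession in the annotation, and where each lies on that transcript is not known here. The difference between probes was therefore compared within each array, a comparison chosen after the values were seen. ILMN_2861259 minus ILMN_2604904 ranged from 1.65 to 1.77 log2 units in wild type and from 1.74 to 2.64 in heterozygous liver, a shift of 0.51. With all 70 ways of assigning the arrays to groups, the exact permutation test (two-sided) gave p = 0.0571, and 0.0857 after adjustment over the 3 pairs of probes. For ILMN_2861259 minus ILMN_2750284 the shift was 0.48, with the same p-values, and between the 2 probes that were lower it was -0.03 (exact p = 0.771). Neither shift of the brightest probe against the other 2 passed the threshold.

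**Figure D2:**
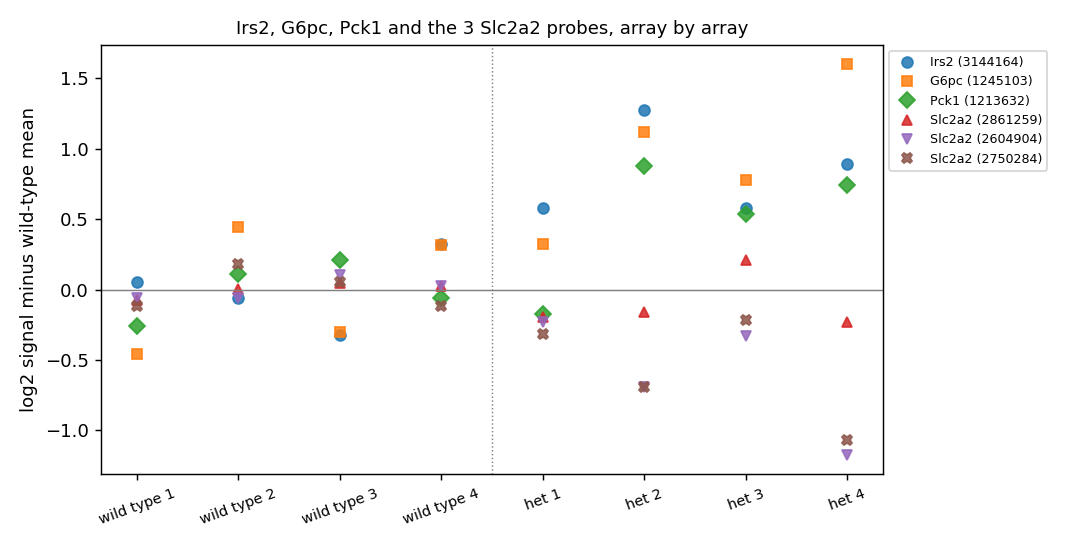
Log2 signal minus the wild-type mean of the same probe, for Irs2, G6pc, Pck1 and the 3 Slc2a2 probes on each array. On heterozygous replicates 2 and 4 G6pc reaches its highest values and 2 Slc2a2 probes their lowest, while the Slc2a2 probe ILMN_2861259 stays between 11.29 and 11.73 around its wild-type mean of 11.52.

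Irs2 encodes the receptor substrate whose liver mRNA is high in fasting and low after a meal. On wild-type arrays its log2 signals were 5.01, 4.90, 4.63 and 5.27, and on heterozygous arrays 5.53, 6.23, 5.53 and 5.85. All 4 heterozygous arrays lay above all 4 wild-type arrays, and heterozygous replicate 2 was highest. The means were 4.95 ± 0.27 and 5.79 ± 0.33 (SD, n = 4 each), with a log2 fold change of 0.83 ± 0.17 (SE; 95% interval 0.45 to 1.22; limma adjusted p = 0.204), the smallest adjusted p among the members.

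The Irs2 probe lay close to background. Unnormalized signals were 133, 136, 131 and 148 for wild type, 145, 170, 150 and 159 for the mutant group, and it passed the detection threshold on 2 of 4 wild-type and 4 of 4 heterozygous arrays. With 2 wild-type detections alone it would not have entered the test. The size of its difference depends on the background step: the log2 fold change was 0.25 without background correction and 0.46 with an offset of 50, in the same direction.

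Irs1, the other main receptor substrate, also lay near background and also passed the detection threshold on 2 of 4 wild-type and 4 of 4 heterozygous arrays, at 4.82, 4.85, 5.08 and 5.29 (log2) for wild type against 5.26, 5.40, 4.96 and 5.06. These ranges overlap. Its log2 fold change was 0.16 ± 0.13 (SE; 95% interval -0.13 to 0.45; limma adjusted p = 0.674). It was 0.043 without background correction and 0.079 with an offset of 50, and it ran from 0.083 without heterozygous replicate 2 to 0.25 without wild-type replicate 4. The log2 ratio of Irs2 to Irs1 on the same array ran from -0.45 to 0.19 in wild type and from 0.27 to 0.83 in heterozygous mice, a shift of 0.67. Each probe was below the detection threshold on 2 wild-type arrays, and not the same 2, so most wild-type ratios involve an undetected probe. This ratio was tested together with those below and its p entered their adjustment, but no call is drawn from it.

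The other 3 ratios set G6pc against its neighbours in glucose output. G6pc to Slc2a2, by the brightest Slc2a2 probe, shifted by 1.05 log2 units, from between -1.77 and -0.94 in wild type to between -0.86 and 0.45 in heterozygous mice (exact permutation p = 0.0286, the smallest that 70 assignments can give, and 0.0571 after adjustment over 4 ratios). G6pc to Fbp1 shifted by 0.92 (exact permutation p = 0.0857, adjusted 0.114) and G6pc to Pck1 by 0.46 (exact permutation p = 0.171, adjusted 0.171). None of these 3 passed after adjustment. The 4 ratios of the adjustment include Irs2 to Irs1, whose exact permutation p was also 0.0286. The adjusted 0.0571 of G6pc to Slc2a2 rests in part on that ratio. Without wild-type replicate 3 the shift of G6pc to Pck1 was 0.29.

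Insr, the receptor itself, was not tested. Its probe passed the detection threshold on 1 wild-type and 2 heterozygous arrays, with log2 values of 4.66, 5.05, 4.58 and 4.56 against 4.59, 4.98, 4.97 and 4.71. The difference of 0.10 did not pass (exact permutation test, two-sided, p = 0.543), and it rests on values at background.

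The transcription regulators upstream of these enzymes did not differ beyond their spread. Foxo1, the forkhead factor that insulin restrains, was well measured at 8.69, 8.30, 8.38 and 8.43 (log2) for wild type against 8.43, 8.63, 8.58 and 8.35. Its log2 fold change was 0.05 ± 0.10 (SE; 95% interval -0.19 to 0.28; limma adjusted p = 0.896). This is the level of its mRNA, whereas insulin acts on FOXO1 mainly through phosphorylation, which arrays do not read. Ppargc1a, encoding PGC-1alpha, was near background at 5.58, 4.95, 5.18 and 5.26 against 5.24, 4.74, 5.41 and 5.13. Its log2 fold change was -0.11 ± 0.16 (SE; 95% interval -0.47 to 0.24; limma adjusted p = 0.828).

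**Figure D3:**
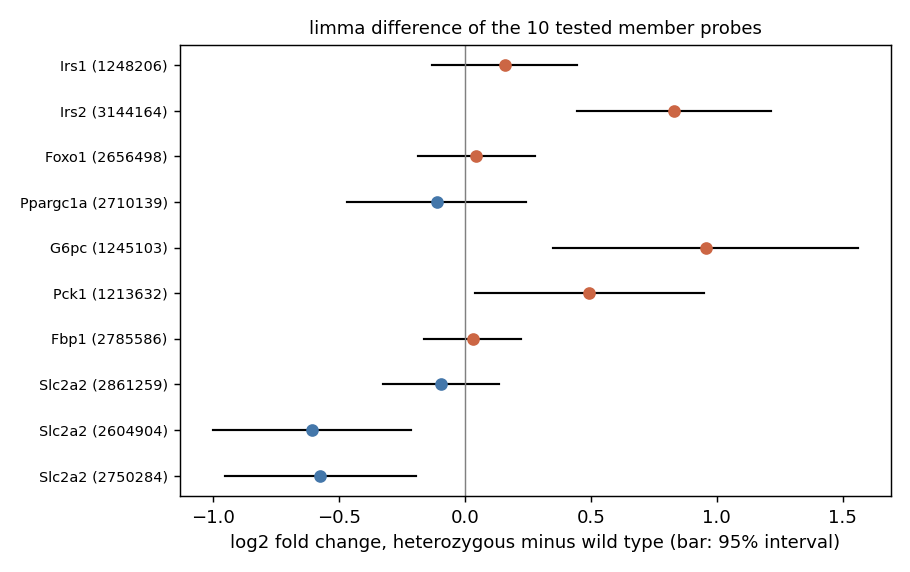
limma log2 fold change (points) with its 95% interval (bars) for the 10 tested member probes, heterozygous minus wild type, orange above 0 and blue below. The intervals of Irs2, G6pc and Pck1 lie above 0 and those of 2 Slc2a2 probes below it, before any adjustment for the number of probes, and the other 5 intervals include 0.

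By the brightest tested probe of each gene, the 8 tested members had a median log2 fold change of 0.10, against 0.01 for all 7960 tested genes. Lists of related genes were read the same way, and 0 genes of any list passed over all probes. The background for an unadjusted p under 0.05 was 5.20% of genes higher and 4.60% lower. Of the 8 members 3 were higher, among them Irs2 with its limited detection, and 0 lower. Slc2a2 counts here by its brightest probe, at -0.09. Its other 2 probes lay lower at an unadjusted p under 0.05, and the mean of its 3 probes was at -0.42 (limma adjusted p = 0.406).

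Other insulin receptor signalling genes, 25 of 43 tested, had a median of -0.0017, with 12 above 0 and 13 below. Unadjusted p-values under 0.05 belonged to 3 genes, all on the lower side. These were Gsk3a, a glycogen synthase kinase gene (log2 fold change -0.39), Socs3, a cytokine-induced inhibitor of receptor signalling (-0.89), and Phlpp1, an AKT phosphatase gene (-0.27), all with limma adjusted p of 0.393 or more. Socs3 varied far more in heterozygous liver, 6.14 ± 0.87 (SD, n = 4), than in wild type, 7.03 ± 0.23 (SD, n = 4). Grb14, an inhibitor of the insulin receptor, was at 0.14. The probes of Akt1, Igf1r and Foxo3 passed the detection threshold on 0 of 8 arrays and those of Akt2 on 1.

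Other gluconeogenic enzymes and carriers, 20 of 31 tested, split evenly, 10 above 0 and 10 below, with a median of 2.1e-05. By brightest probes, the 1 gene with an unadjusted p under 0.05 was Slc37a4, whose protein carries glucose 6-phosphate to the G6pc enzyme inside the endoplasmic reticulum. It had a log2 fold change of 0.25 (limma adjusted p = 0.426), from 6.97 ± 0.12 in wild type to 7.22 ± 0.17 in heterozygous liver (SD, n = 4 each). Mdh2 (0.18), Got1 (0.30) and Gpt (0.15), enzymes that feed the path from malate and amino acids, followed with adjusted p-values of 0.486 to 0.557. Dimmer probes of 2 further genes had an unadjusted p under 0.05 on the lower side. For Mdh1, cytosolic malate dehydrogenase, that probe was at -0.27 (limma adjusted p = 0.378) and the brightest at 0.0084, and for Slc25a13, a mitochondrial aspartate and glutamate carrier, the values were -0.27 (limma adjusted p = 0.435) and 0.18.

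In the glycolysis, glycogen and sugar entry list 16 of 28 were tested, 10 above 0 and 6 below, with a median of 0.04. Pklr, the liver pyruvate kinase that opposes gluconeogenesis, was at -0.48 (limma adjusted p = 0.378) and its other probe at -0.41. Gys2, liver glycogen synthase, was at -0.37, Khk, the fructose kinase, at -0.17 and the urate and sugar carrier Slc2a9 at 0.21. By brightest probes only Pklr of these had an unadjusted p under 0.05. The other Khk probe was at -0.28 (unadjusted p = 0.00741, limma adjusted p = 0.309), and the other Slc2a9 probe at -0.057.

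Regulators of gluconeogenic transcription, 26 of 38 tested, had a median of -0.02, with 1 higher and 3 lower at an unadjusted p under 0.05. The lower ones were Foxa2, a forkhead factor of hepatocytes (log2 fold change -0.59), Ppara, the fasting-activated nuclear receptor (-0.40), and Prkaa2, a catalytic AMP kinase subunit (-0.33). The higher one was Stk11, the kinase upstream of AMP kinase (0.22). Their limma adjusted p-values ran from 0.337 to 0.404.

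Because the members answer to feeding, genes with a known direction after insulin or a meal were read beside them. Of 12 tested genes that insulin or feeding lowers, 3 were above 0 and 9 below, with a median of -0.09. Cited2, a transcriptional coregulator, was at -0.37 (unadjusted p = 0.0143, limma adjusted p = 0.356), Cyp4a14 at -0.66, the hormone gene Fgf21 at -0.44 and Sesn1 at -0.11. The other Sesn1 probe was at -0.33 (unadjusted p = 0.0234, limma adjusted p = 0.387). Of 15 tested genes that insulin or feeding raises, 3 were above 0 and 12 below, with a median of -0.15. The lowest p-values here were those of Pnpla5 (-0.57, limma adjusted p = 0.378), Gpam (-0.65), Thrsp (-0.69) and Sqle (-0.14, and -0.34 on its other probe). Most genes of both lists lay below 0, where 3630 of all 7960 tested genes did. For each list, the ranges of its mean log2 signal per array overlapped between wild-type and heterozygous liver. The part of feeding state in the values of G6pc, Irs2 and Slc2a2 was not tested.

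**Figure D4:**
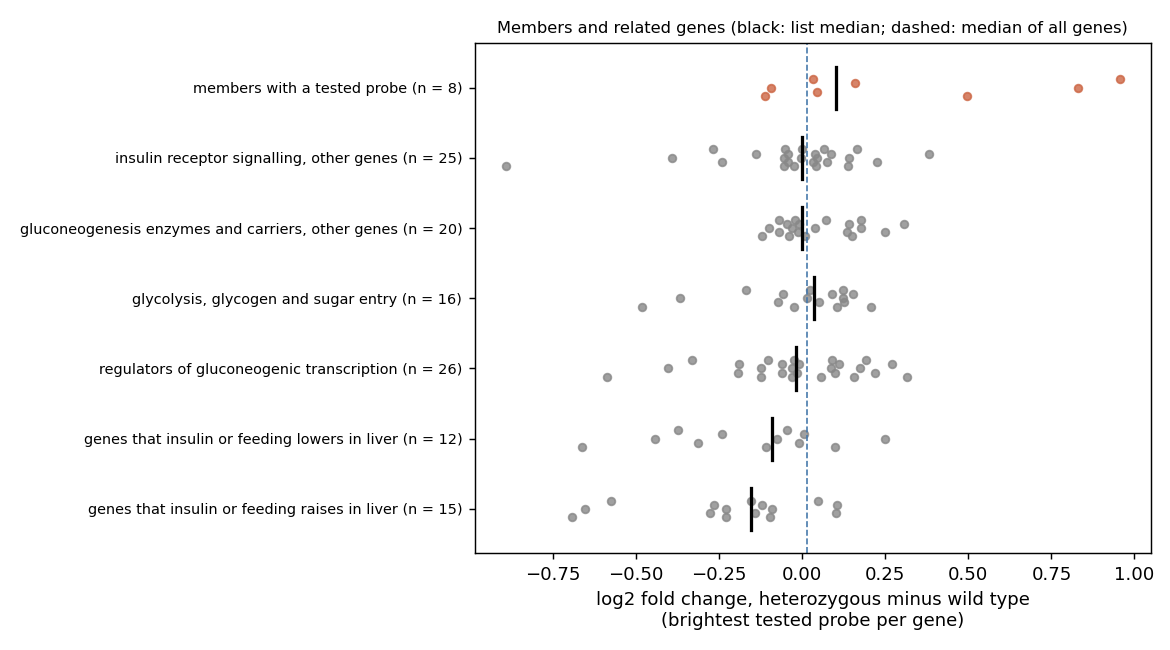
Log2 fold change, heterozygous minus wild type, of the brightest tested probe of each gene, for the members (orange) and 6 lists of related genes (grey), with the list median as a black bar and the median of all 7960 genes as a dashed line. G6pc, Irs2 and Pck1 lie to the right of every other gene shown, and both feeding lists lie mostly left of 0. On its wild-type detections alone Irs2 would not have been tested, and without background correction it was at 0.25, so its place is no support for a difference.

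The tissue label was checked with hepatocyte markers. Of 10, 6 were tested: Apoa1, Ttr, Cps1, Ass1, Hnf4a and Serpina1a. The mean log2 signal of the 6 was 13.37 to 13.44 across wild-type and 13.41 to 13.51 across heterozygous arrays. Hnf4a was at 0.19, Serpina1a at 0.16 and Ttr at -0.098, and 0 of the 6 had a limma unadjusted p under 0.05. The groups did not overlap for Ttr, as for 3.10% of all probes on the lower side. The probes for Alb and Fgb, which liver makes in abundance, passed the detection threshold on only 2 and 0 arrays, so a probe near background does not show a gene to be silent. Adipose and kidney or intestine markers had 0 tested genes. Bile duct markers had 3 of 7 tested, with mean levels of 5.77 to 6.13 in wild type and 6.07 to 6.45 in heterozygous liver, while the probes of Krt19 and Sox9 were detected on 0 arrays. Of the 3, Cdh1, an epithelial cadherin that hepatocytes also make, was at 0.62 with groups that did not overlap (limma adjusted p = 0.204), Cldn7 at 0.12 and Krt7 at -0.028. Macrophage markers had 5 of 8, at 6.53 to 6.76 and 6.33 to 6.77, blood markers 3 of 6, at 9.61 to 10.07 and 9.51 to 9.68, and pancreas markers 3 of 9, at 7.73 to 7.87 and 7.73 to 7.83. Of the tested macrophage markers 4 lay below 0 and 1 above, and all 3 tested blood markers lay below 0. Hba-a1 was at -0.45 (limma unadjusted p = 0.0278, adjusted p = 0.401), S100a8 at -0.40 and Alas2 at -0.028. The part of these cell types in the members' values was not tested. The Jag1 probe was detected on 0 of 8 arrays, so it could not check the genotypes.

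Over the 8 arrays, the genes whose brightest probe was most like that of G6pc, by Pearson correlation among 7959 other genes, were Ncald (0.97), Retreg2 (0.97) and Gpc4 (0.96). For Irs2 they were Tut1 (0.98), Vps11 (0.96) and Eif3k (0.95), and for Pck1 Lsg1 (0.98), Mysm1 (0.96) and Orc4 (0.95). For the brightest Slc2a2 probe they were Czib (0.95), Dcaf13 (0.94) and Atg3 (0.94). All points share the same 8 arrays, and these values are descriptive. No other member was among the 3 genes most like any member.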

How the data were processed

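Per the file headers the authors deposited signal intensity before normalization (25697 probes, 8 arrays) and, paired with it, the detection p-value. GenomeStudio 2011.1 is named in the submitters' processing notes. A second deposited table holds processed intensity on a linear scale, by steps not given in the sources used here, and served as an alternative. Signals were background corrected from the detection p-values (nec, offset 16), quantile normalized and taken as log2 with limma 3.58.1 in R 4.3.3. Low values are compressed by the offset. Tested probes had detection p-values below 0.05 on 4 or more of 8 arrays. Groups followed the genotype label; the titles call the mutant group "hom", whereas genotype and design text say heterozygous. Each sample has its own mouse number. No chip or hybridisation day is named, so batches were not tested. The number of arrays limits precision, and for dim probes so does the signal over background.

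The comparison used lmFit and eBayes of limma, two-sided, adjusted by Benjamini-Hochberg over all 11412 tested probes, and single values by exact permutation over 70 assignments. The limma fit was tested on values simulated from the normalized means and spread, and the permutation test on made-up values. Background correction, normalization and the detection filter were not tested this way. Platform annotation named 23978 probes with 1 symbol, 0 with several and 1719 with none. The members, the lists, the rule for named genes (every member, up to 4 genes per list by smallest unadjusted p, and the 3 genes most alike per member) and the motifs were chosen with earlier results of these data known. Genes named beyond this rule were chosen after their values were seen: Akt1, Akt2, Igf1r, Foxo3, Mdh1, Slc25a13 and the markers. So was the comparison between Slc2a2 probes. Alternatives were background correction, offset, scaling, detection filter, processed table, replicate block, prior, array weights, leaving out each array and averaging probes. Same-numbered mice had deviations correlated between -0.07 and 0.13, so numbers were not taken as pairs.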

Additional observations from a re-analysis of the deposited data

Results flagged for a closer look

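Of 22 sets of 4 values, one per member probe and group, 1 had a value set well off from its 3 companions; chance does this in about 1 of 20 sets. The brightest Slc2a2 probe, ILMN_2861259, read 11.73 on heterozygous replicate 3, against 11.29 to 11.36 on the other heterozygous arrays.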

How the results depend on the processing

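The count of probes past the threshold was 1 lower and 0 higher. It was 0 under a replicate block, with all probes tested, and without background correction. With each array left out it ranged from 0 to 7 (0 to 1 higher, 0 to 7 lower): 7 without heterozygous replicate 1, 2 without heterozygous replicate 2, and 0 without heterozygous replicate 3 or wild-type replicate 4. The cause was not tested. The 10 member probes, the mean of the Slc2a2 probes and the 4 ratios gave 216 values under alternatives, of which 205 kept their direction and side of the threshold, 5 reversed and 6, all of them ratios and 2 of these Irs2 to Irs1, newly passed. No member probe passed under any alternative run. Reversals concerned values near 0: Fbp1 was -0.051 with median scaling and -0.014 to 0.090 with an array left out, Foxo1 -0.0036 to 0.13 and Ppargc1a -0.21 to 0.020 with an array left out. Without background correction the ratio of G6pc to Pck1 was 0.62, and of G6pc to Slc2a2 0.99, each past the threshold (exact permutation test, adjusted p = 0.0381). The ratio of Irs2 to Irs1 was 0.21 there and 0.38 with an offset of 50. Each of its probes was undetected on 2 wild-type arrays and no call is drawn from it, though its p entered the adjustment of the other ratios. With an array left out the ratio of G6pc to Fbp1 ranged from 0.75 to 1.15, of G6pc to Pck1 from 0.29 to 0.59, of G6pc to Slc2a2 from 0.79 to 1.22 and of Irs2 to Irs1 from 0.54 to 0.79. The ratios of G6pc to Fbp1 and to Slc2a2 passed without heterozygous replicate 1. With the replicate block G6pc stayed at 0.96 (limma adjusted p = 0.137). Signal over background limits Irs2, Irs1, Insr and Ppargc1a, which could not be tested under the stricter detection filter. The ratios were not run under the filter, block, prior and weight alternatives.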
